A study of Mus musculus with 5 samples.

Results

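The nuclear-encoded subunits of the mitochondrial respiratory chain and of ATP synthase were followed in the livers of mice given CSF1-Fc, a fusion of pig macrophage colony-stimulating factor with an immunoglobulin Fc region. Members were all genes whose symbol has the form used for subunits of complexes I to IV, cytochrome c or ATP synthase, and 82 of the 18820 genes that had a probe set of their own matched. They comprised 33 genes of complex I, 4 of complex II, 8 of complex III, 1 for cytochrome c, 19 of complex IV and 17 of ATP synthase. Adult C57BL/6 mice, 6 to 10 weeks old by the study's methods and otherwise carrying no allele named in the labels, were injected subcutaneously on 4 successive days with phosphate-buffered saline (PBS, *n* = 2) or with CSF1-Fc at 1 mg/kg (*n* = 3). Livers were taken on day 5, and RNA of each was hybridised to 1 Affymetrix Mouse Gene 1.1 ST array. Whole liver was measured, so fewer cells of a type and less RNA per cell cannot be told apart. The sex of the 5 mice is not given in the labels.

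The respiratory chain carries electrons from NADH and succinate to oxygen and pumps protons across the inner mitochondrial membrane, and ATP synthase uses the returning protons to make ATP. Complex I takes electrons from NADH, complex II from succinate, complex III passes them on to cytochrome c, and complex IV reduces oxygen. Hepatocytes are rich in mitochondria, and every nucleated cell of the liver uses these subunits. Some of the protein chains, including the catalytic core of complex IV, are encoded in mitochondrial DNA. Those genes are not analysed here. *Cox7c*, *Ndufa13* and *Uqcrc2* shared their probe sets with other symbols and are likewise not counted.

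The nuclear factor NRF1 is known for binding the promoters of many of these genes. RefSeq windows of 300 bases (GRCm38.p6, 250 before to 50 after the gene's start) were matched for 67 of the 82 members. The motif GCGCNTGCG was found on either strand in 25 of the 67 (37.3%), against 9.68% of 17491 protein-coding genes with such a window. The ETS factor motif CCGGAAG was in 17 of the 67 (25.4%, against 12.9%), and the YY1 motif AAGATGGC in 10 (14.9%, against 3.57%). A match is a run of letters and not a shown binding site. The stretches below are the parts before the start site that hold the NRF1 motif in 4 members, printed 5′ to 3′ on the gene's own strand with the motif in capitals. They are shown because *Sdha* had the largest difference between the groups of all members, while *Cycs*, *Cox6a1* and *Atp5g2* carry the same motif and had arrays that overlapped between the groups. They are *Sdha* (chr13:74350241-74350357, minus strand), *Cycs* (chr6:50566602-50566650, minus strand), *Cox6a1* (chr5:115349046-115349140, minus strand) and *Atp5g2* (chr15:102671060-102671109, minus strand).
Sdha: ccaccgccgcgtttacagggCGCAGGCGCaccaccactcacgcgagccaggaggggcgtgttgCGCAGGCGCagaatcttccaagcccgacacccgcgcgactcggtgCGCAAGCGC
Cycs: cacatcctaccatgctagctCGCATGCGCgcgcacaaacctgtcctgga
Cox6a1: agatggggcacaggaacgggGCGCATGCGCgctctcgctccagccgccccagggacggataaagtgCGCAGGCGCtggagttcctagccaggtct
Atp5g2: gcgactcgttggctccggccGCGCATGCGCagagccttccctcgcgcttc
The runs of 10 capitals hold the motif on both strands, overlapping. The median log2 fold change was -0.05 over the 25 members with the NRF1 motif and 0.00 over the 42 whose window lacked it.

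Markers of liver were at the bright end of the arrays in both groups. *Alb*, the gene of serum albumin, had log2 intensities of 13.24 and 13.20 in PBS and 13.23, 13.26 and 13.28 in CSF1-Fc livers. *Ttr*, *Apoa1* and *Trf* lay between 12.85 and 13.19 on all arrays. The brightest named gene averaged 13.60, and how well differences are kept near the top of the scale was not tested. Macrophage markers stood apart between the groups. All 28 on the list were called higher after CSF1-Fc by limma, with a median log2 fold change of 2.52, and their summed intensity was 13.47 to 13.66 on the log2 scale in PBS and 15.77 to 15.91 in CSF1-Fc livers. *Adgre1*, which encodes F4/80, went from 8.44 and 8.50 to 11.18, 11.03 and 11.06. Neutrophil markers were called higher in 10 of 12 cases, with sums of 7.98 to 8.44 and 11.01 to 11.22. Over all named genes, 8.34% were called higher and 3.95% lower. The 35 liver secreted proteins had 0 calls in either direction by limma, with a median of -0.15. At an unadjusted p under 0.05, 5 were lower and 0 higher, against 14.5% and 13.2% of all named genes. Estimates were negative for 31 of the 35, and for 11651 of the 18820 named genes. In 19 (54.3%) all CSF1-Fc arrays lay below both PBS arrays. That share was 29.3% over all named genes and 36.2% over the 6570 in the intensity range of most members. The coagulation factors *F9* (-0.91, adjusted p = 0.098) and *F12* (-0.54, adjusted p = 0.082) had the lowest p. The part of these shifts in the values below was not tested.

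Whether subunits that all cell types share moved as a block while leukocyte markers rose was asked first. At an adjusted p under 0.05 in limma (Benjamini-Hochberg over all 35556 probe sets), 0 of the 82 members were lower and 0 were higher after CSF1-Fc. Over all named genes 3.95% were called lower and 8.34% higher. Without adjustment, 11 of 82 members had a p under 0.05 and were lower, and 0 were higher, beside 14.5% and 13.2% of all named genes. In 18 of 82 members all CSF1-Fc arrays lay below both PBS arrays and in 0 above, against 29.3% and 18.2% of all named genes. The share of members below both PBS arrays (22.0%) was thus under that of all named genes. Members are brighter than most genes. Among the 6570 named genes in the intensity range of the 74 members other than 8 dim complex IV forms, 8.39% were called lower and 10.7% higher, 24.9% were lower at an unadjusted p under 0.05, and 36.2% lay below both PBS arrays. The count of 11 depended on the fit. It was 1 with arrays centred on liver secreted proteins, 3 without the first and 1 without the second PBS liver, 4 without the first CSF1-Fc liver and 17 with array weights.

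The median log2 fold change of the members was -0.01 (range -0.71 to 0.48), with 46 negative and 36 positive. That of all named genes was -0.08. By complex the medians were -0.06 for complex I, -0.31 for complex II, -0.04 for complex III, 0.02 for complex IV and 0.00 for ATP synthase, and cytochrome c stood at 0.10. The precision bounds what could have been seen. The 95% interval stayed within a 2-fold change either way for 78 of 82 members and within a 1.5-fold change for 34, and it excluded a 2-fold fall for 79 members and a 1.5-fold fall for 45. A 1.5-fold fall could thus not be excluded for many members with 2 and 3 arrays. *Sdha* (-0.71) and *Ndufb3* (-0.63) had estimates beyond a 1.5-fold fall (0.58 on the log2 scale) and were still not called.

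**Figure D1:**
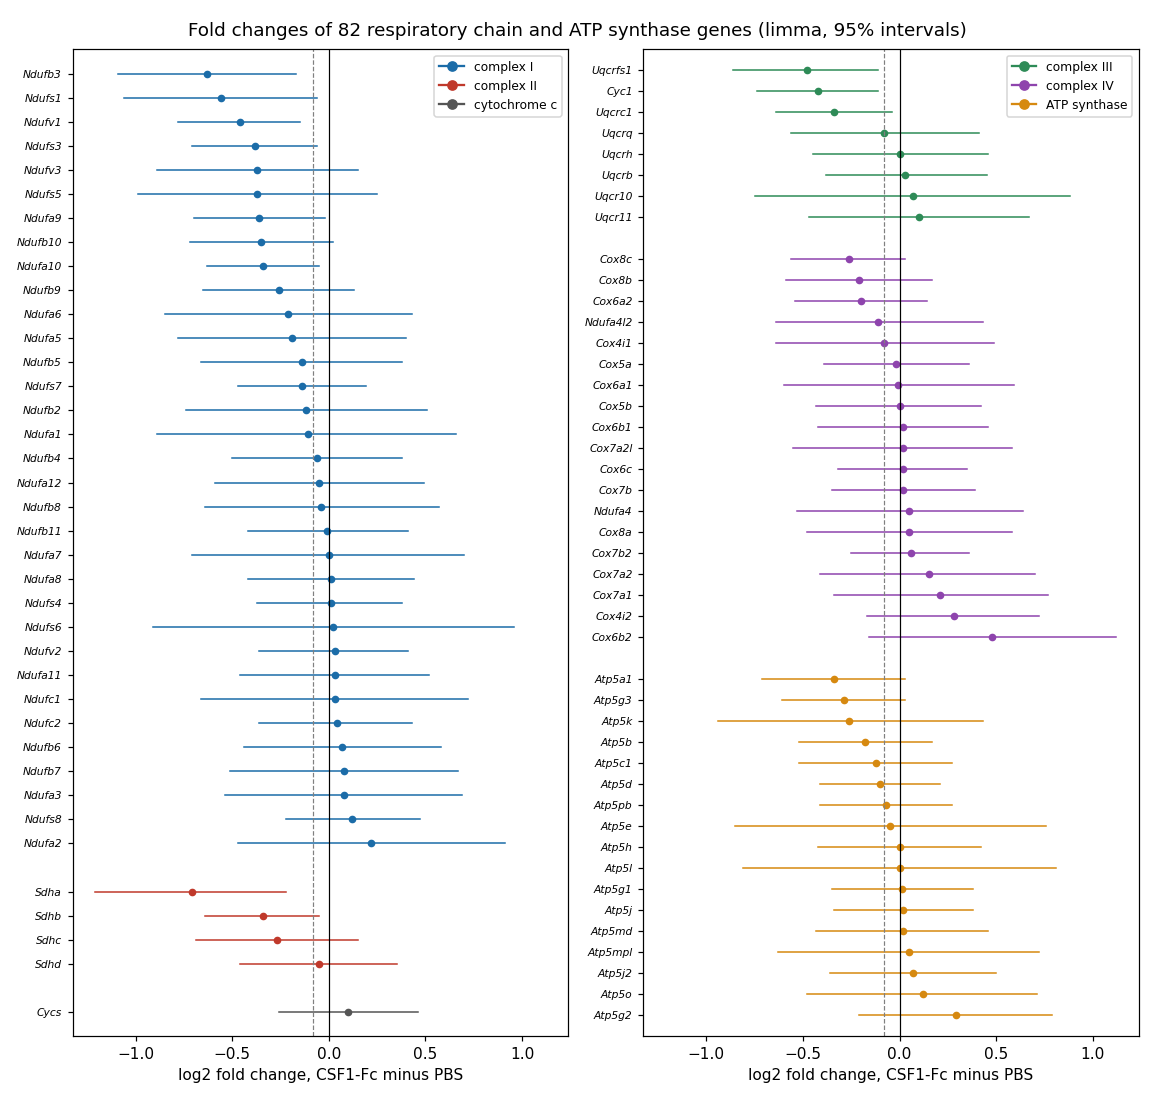
Log2 fold change (CSF1-Fc minus PBS, horizontal axis) of each of the 82 members, grouped by complex and sorted within it. Points are limma estimates, bars are 95% intervals from 2 PBS and 3 CSF1-Fc arrays, the solid line marks 0 and the dashed line the median of all named genes (-0.08). Of the intervals, 11 exclude 0, all on the lower side and all in complexes I, II and III.

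In complex I, 6 of 33 members had an unadjusted p under 0.05, all lower, and 8 (24.2%) lay below both PBS arrays. Of all named genes 14.5% and 29.3% did so, and 24.9% and 36.2% of those in the members' intensity range. *Ndufv1*, the subunit that binds NADH and the flavin, had log2 intensities of 10.34 and 10.51 in PBS and 10.02, 9.88 and 9.99 in CSF1-Fc livers. The groups did not overlap, and the difference was -0.46 ± 0.13 (SE, limma, adjusted p = 0.0909). *Ndufs1*, the largest iron-sulfur subunit, had 9.15 and 9.52 against 8.96, 8.45 and 8.90, a difference of -0.56 ± 0.21 (adjusted p = 0.17). *Ndufs3*, a core subunit of the same peripheral arm, had 10.53 and 10.41 against 10.06, 10.21 and 9.99 (-0.38 ± 0.13, adjusted p = 0.149). All CSF1-Fc arrays were below both PBS arrays for each of the 3 genes.

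The accessory subunits of complex I, which surround the redox core, were mixed. *Ndufb3*, of the membrane arm, had 7.70 and 7.50 in PBS and 7.14, 7.13 and 6.66 in CSF1-Fc livers, a difference of -0.63 ± 0.19 (limma, adjusted p = 0.108). *Ndufa9* (-0.36, adjusted p = 0.186) and *Ndufa10* (-0.34, adjusted p = 0.153) also had non-overlapping groups. The brightest members had estimates near 0. *Ndufc2* had 11.93 and 11.72 against 11.88, 12.04 and 11.66, and *Ndufb11* had means of 11.91 ± 0.13 (SD, *n* = 2) and 11.90 ± 0.22 (SD, *n* = 3). In both genes the groups overlapped. Their estimates were 0.04 (95% interval -0.36 to 0.43) and -0.01 (-0.42 to 0.41). Among the redox core, *Ndufv2* (0.03), *Ndufs7* (-0.14) and *Ndufs8* (0.12) had overlapping groups.

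Complex II, succinate dehydrogenase, is also an enzyme of the tricarboxylic acid cycle and is the complex with no subunit from mitochondrial DNA. *Sdha*, its flavin-bearing catalytic subunit, had 11.19 and 11.44 in PBS and 10.63, 10.29 and 10.89 in CSF1-Fc livers. This was the largest difference among the 82 members, -0.71 ± 0.20 on the log2 scale, or -39.0% in intensity (95% interval -1.21 to -0.22, limma, adjusted p = 0.0934). *Sdhb*, the iron-sulfur subunit, had 11.03 and 10.99 against 10.67, 10.73 and 10.62 (-0.34 ± 0.12, adjusted p = 0.156). Both catalytic subunits separated the groups, and the membrane anchors overlapped. The estimates of *Sdhb* (95% interval -0.64 to -0.05) and *Sdhc* (-0.69 to 0.15) were nevertheless similar. For *Sdhc* only the second CSF1-Fc array (10.68) passed the lower PBS array (10.65). *Sdhc* had 11.00 and 10.65 against 10.62, 10.68 and 10.35 (-0.27 ± 0.17), and *Sdhd* had 10.52 and 10.37 against 10.33, 10.63 and 10.21 (-0.05 ± 0.17).

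In complex III the larger subunits separated the groups and the small ones did not. *Cyc1*, cytochrome c1, which hands electrons to cytochrome c, had 11.30 and 11.22 in PBS and 10.77, 10.96 and 10.79 in CSF1-Fc livers (-0.42 ± 0.13, limma, adjusted p = 0.114). *Uqcrfs1*, the Rieske iron-sulfur protein, had 8.53 and 8.40 against 7.94, 8.19 and 7.82 (-0.48 ± 0.15, adjusted p = 0.124). *Uqcrc1*, a core protein without a redox centre, had 10.57 and 10.59 against 10.17, 10.31 and 10.22 (-0.34 ± 0.12, adjusted p = 0.163). In each of these 3 genes the groups were apart. The 5 small subunits measured, among them *Uqcrb* (0.03) and *Uqcrh* (0.00), had estimates between -0.08 and 0.10 and all overlapped. *Cycs*, the mobile carrier cytochrome c, had 12.14 and 11.92 against 12.17, 12.25 and 11.97 (0.10, 95% interval -0.26 to 0.46).

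**Figure D2:**
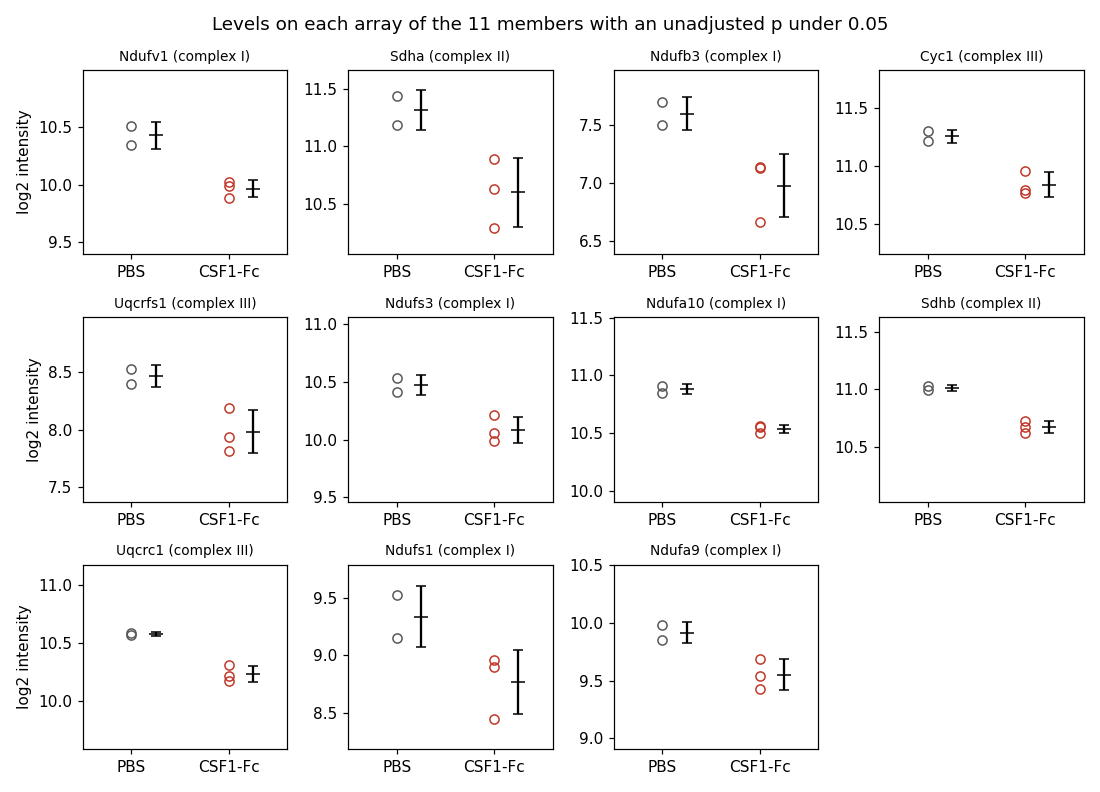
Log2 intensity (vertical axis, each panel spanning the same range of log2 units) of the 11 members with an unadjusted p under 0.05, in PBS (grey, 2 livers) and CSF1-Fc (red, 3 livers). Circles are single livers, and the dash with bars beside them is the mean ± SD. In all 11 panels every CSF1-Fc liver lies below both PBS livers, as for *Sdha* (10.29 to 10.89 against 11.19 and 11.44), and none of the 11 had an adjusted p under 0.05.

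Complex IV, cytochrome c oxidase, had 0 of 19 members with an unadjusted p under 0.05. Of all named genes 14.5% were lower and 13.2% higher at that cutoff. Several of its subunits come as a general or liver form and a form known from heart, skeletal muscle, lung or testis. *Cox4i1*, the general form of subunit 4, had means of 10.17 ± 0.05 (SD, *n* = 2) in PBS and 10.09 ± 0.39 (SD, *n* = 3) in CSF1-Fc livers, where the arrays reached from 9.76 to 10.52 (difference -0.08 ± 0.23, SE). *Cox4i2*, its lung form, was dim, with 4.69 and 4.41 against 4.79, 5.08 and 4.61 (0.28 ± 0.18). *Cox6a1* (-0.01) and *Cox8a* (0.05) are the forms found in liver, and *Cox6a2* (-0.20) and *Cox8b* (-0.21) those of heart and muscle. The heart and muscle form *Cox7a1* (0.21), the liver form *Cox7a2* (0.15) and the related *Cox7a2l* (0.02), which takes part in joining complexes III and IV, all overlapped between the groups.

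*Cox6b2*, known from testis, had the largest positive estimate of all members, with 4.02 and 4.23 in PBS and 4.73, 4.98 and 4.11 in CSF1-Fc livers (0.48 ± 0.27, limma, adjusted p = 0.348). The third CSF1-Fc array lay between the PBS arrays. Its general partner *Cox6b1* stood at 0.02, and *Cox7b* and *Cox6c*, 2 of the brightest probe sets, at 0.02 each. *Cox7b2* (0.06) and *Cox8c* (-0.26), forms known from testis, were near the dim end of the table. *Ndufa4*, once assigned to complex I and now placed in complex IV, had 0.05, and its paralogue *Ndufa4l2* had -0.11. Of the members, 6 had a mean log2 intensity under 5, and all were complex IV forms of other tissues.

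In ATP synthase 0 of 17 members had an unadjusted p under 0.05. Of all named genes 14.5% were lower and 13.2% higher at that cutoff, and 24.9% and 17.3% of those in the members' intensity range. All CSF1-Fc arrays lay below both PBS arrays in 3 (17.6%), against 29.3% of all named genes. *Atp5a1*, the α subunit of the F1 head, had 11.70 and 11.83 in PBS and 11.47, 11.23 and 11.57 in CSF1-Fc livers (-0.34 ± 0.15, limma, adjusted p = 0.247). *Atp5b*, the catalytic β subunit, had 12.23 and 12.34 against 12.20, 11.93 and 12.19 (-0.18 ± 0.14, adjusted p = 0.538). In both genes all CSF1-Fc arrays were lower, although for *Atp5b* the nearest arrays of the groups almost touched. *Atp5d*, the δ subunit, overlapped (-0.10). The ring that turns with the proton flow is made of one protein encoded by 3 genes, and these did not share a sign. *Atp5g3* had 11.19 and 11.14 against 10.80, 11.02 and 10.81 (-0.29 ± 0.13, adjusted p = 0.263). *Atp5g2* had 11.38 and 11.18 against 11.54, 11.90 and 11.27 (0.29 ± 0.21, adjusted p = 0.476), and *Atp5g1* stood at 0.01. The 9 subunits of the peripheral stalk and membrane part ranged from -0.26 to 0.12 and all overlapped.

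Grouped by role across complexes, 16 members were taken as catalytic and core subunits. These were the redox core of complex I, the head of complex II, *Cyc1*, *Uqcrfs1* and *Uqcrc1* of complex III, and the F1 part of ATP synthase. The F1 part held 5 genes, including those of the γ, δ and ε subunits, which lie outside the α and β head. The 16 members had a median log2 fold change of -0.34, with 14 of 16 negative and 10 (62.5%) below both PBS arrays. The last share was 29.3% over all named genes and 36.2% in the members' intensity range. Centred on liver secreted proteins, which moved the median of all named genes from -0.08 to 0.15, the median of the 16 was -0.12. The 58 other subunits, leaving out 8 complex IV forms of other tissues, had a median of 0.00 (0.23 with that centring). Of these, 28 were negative and 6 (10.3%) were below both PBS arrays. This grouping was made after the values were seen, so the difference is a description with no test.

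Livers of one group differed from each other in these genes. The median SD among the CSF1-Fc arrays was 0.25 over the members and 0.16 over all named genes. The second CSF1-Fc array was the highest of its group in 72 of 82 members (87.8%), against 33.9% of all named genes, and the third was the lowest in 72 (against 43.6%). The median gap between the second and the third array was 0.47 over the members and 0.02 over all named genes. In PBS, the first array was above the second in 70 of 82 members (85.4%, against 47.2%), with a median gap of 0.19. Across the 82 members, the deviation of the first PBS array from its group mean correlated with that of the second CSF1-Fc array at *r* = 0.74, and at 0.25 over all probe sets. The points of this correlation share arrays and it is a description only.

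The gap between arrays was wider in the other subunits than in the core. Among those 58, the second CSF1-Fc array was the highest in 57 and the gap to the third had a median of 0.60. Among the 16 catalytic and core subunits it was the highest in 10 and the lowest in 5 (*Ndufv1*, *Ndufs1*, *Sdha*, *Atp5a1* and *Atp5b*), with a median gap of 0.14. The same order was seen outside the mitochondrion. Of 71 cytosolic ribosomal protein genes, chosen after the pattern was seen, 70 had their highest CSF1-Fc value on the second array, with a median gap of 0.44, whereas the gap was -0.22 over the 35 liver secreted proteins and 0.04 over the 28 macrophage markers. What set these arrays apart was not tested. The median standard error was 0.20 for the 58 other subunits and 0.14 for the core, beside 0.15 for all named genes. Without the second CSF1-Fc array the members' median was -0.18 and without the third it was 0.10, so its sign rested on single livers. The median of the catalytic and core subunits was -0.37 and -0.33 in those fits.

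**Figure D3:**
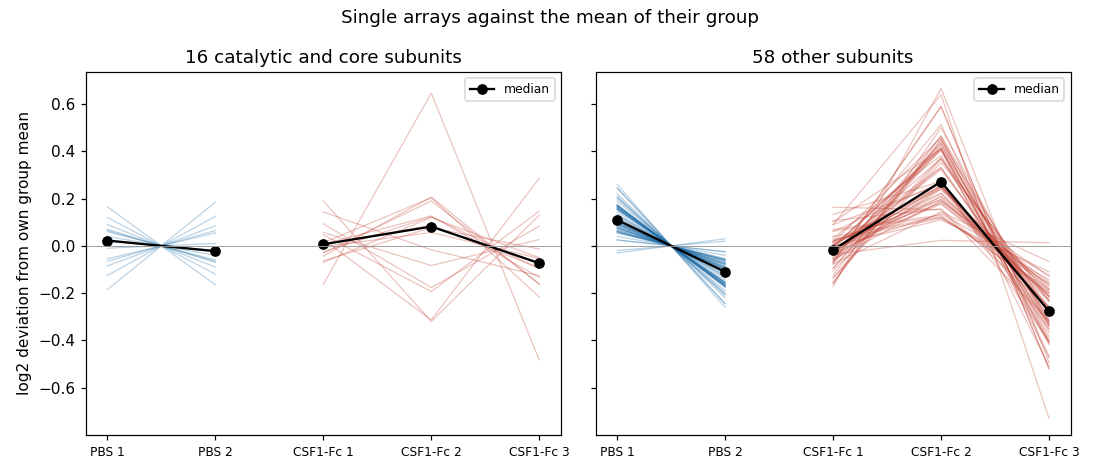
Deviation of each array from the mean of its own group (log2, vertical axis) for the 16 catalytic and core subunits (left) and the 58 other subunits (right); thin lines are genes and black points medians. Among the other subunits the second CSF1-Fc array lies highest in 57 of 58 genes, and among the core in 10 of 16.

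Genes that feed, build or use the chain were counted from lists made for this comparison. For reference, 3.95% of all named genes were called lower and 8.34% higher, and 8.39% and 10.7% of those in the members' intensity range. Electron entry by way of coenzyme Q had 5 of 19 genes called lower and 0 higher (median -0.16). *Etfdh*, which passes electrons from fatty acid oxidation to coenzyme Q, fell from 10.92 ± 0.08 (SD, *n* = 2) to 9.87 ± 0.12 (SD, *n* = 3), with all CSF1-Fc arrays below both PBS arrays (-1.06 ± 0.13, limma, adjusted p = 0.00543). *Etfa*, a subunit of the flavoprotein that supplies it, fell by 0.60 on the log2 scale (adjusted p = 0.0387), while the other subunit, *Etfb*, stood at 0.02. *Coq8a*, needed for coenzyme Q synthesis, fell from 10.59 and 11.10 to 9.07, 8.67 and 9.68 (-1.71 ± 0.31, adjusted p = 0.0229). Of the 19 estimates on this list, 14 were negative and 5 positive. The tricarboxylic acid cycle and pyruvate entry had 2 of 17 lower and 0 higher, with a median of -0.50. *Sucla2*, a succinyl-CoA ligase subunit (-0.60, adjusted p = 0.0326), and *Pcx*, pyruvate carboxylase (-0.99, adjusted p = 0.0455), passed, and fumarase *Fh1* did not (-0.52, adjusted p = 0.0511). In 12 of the 17 genes on this list all CSF1-Fc arrays lay below both PBS arrays (70.6%, against 29.3% of all named genes).

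Assembly factors had 1 of 44 called lower and 0 higher (3.95% and 8.34% of all named genes), with a median of -0.20. The called gene was *Ecsit*, which acts in building complex I and in Toll-like receptor signalling, with 8.28 and 8.24 in PBS and 7.40, 7.58 and 7.39 in CSF1-Fc livers (-0.80 ± 0.13, limma, adjusted p = 0.0142). *Cox11* (-0.55, adjusted p = 0.0608) and *Taco1* (-0.68, adjusted p = 0.069), both for complex IV, did not pass. Regulators of mitochondrial biogenesis had 0 of 15 called in either direction by limma, with a median of -0.37. At an unadjusted p under 0.05, 7 were lower and 1 higher, against 14.5% and 13.2% of all named genes. *Ppargc1a*, the coactivator PGC-1α, had 7.64 and 7.40 against 6.29, 6.65 and 7.06 (-0.85 ± 0.24, adjusted p = 0.0885). The import and membrane list had 2 of 29 lower, the fusion proteins *Mfn2* (-1.0, adjusted p = 0.019) and *Mfn1* (-0.68, adjusted p = 0.0414), and 0 higher (median -0.04).

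On the list of ATP export and control of coupling, 2 of 7 genes were called higher and 0 lower (8.34% and 3.95% of all named genes). The median was 0.12, and 4 of the 7 overlapped between the groups, with estimates from -0.12 to 0.12. *Slc25a4*, an ADP/ATP carrier known from heart and muscle, rose from 6.18 and 5.99 to 7.52, 8.0 and 7.61 (1.62 ± 0.18, limma, adjusted p = 0.00309). *Atpif1*, the inhibitor protein of ATP synthase, rose from 10.12 and 9.70 to 11.16, 11.32 and 10.87 (1.20 ± 0.20, adjusted p = 0.0148). All CSF1-Fc arrays lay above both PBS arrays in both genes, while the subunits of the enzyme that *Atpif1* inhibits had the estimates between -0.34 and 0.29 given above. The macrophage sums moved in the same direction as these genes, and their part was not tested.

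**Figure D4:**
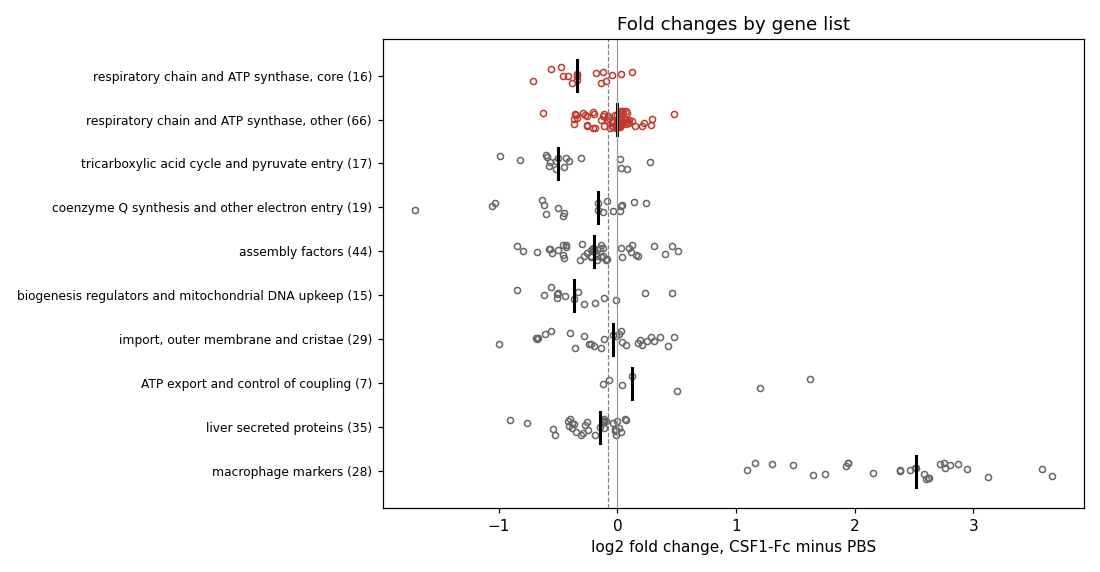
Log2 fold change (CSF1-Fc minus PBS, horizontal axis) of each gene in the members, divided into 16 core and 66 other genes (red), and in the comparison lists (grey), with list sizes in brackets. Black bars are list medians and the dashed line is the median of all named genes (-0.08). The macrophage markers (1.09 to 3.66) lie clear of the members (-0.71 to 0.48), and the core subunits (median -0.34) lie between the tricarboxylic acid cycle (-0.50) and the other subunits.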

How the data were processed

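Liver RNA (50 ng) of 5 mice was amplified, biotin-labelled and hybridised to 1 Affymetrix Mouse Gene 1.1 ST array each. The deposited values are intensities on a linear scale, already normalised by the authors, 1 per probe set. The study names Expression Console (version 1.1 in the submitters' processing notes) for quality control and Partek software; background correction, normalisation and build are not given in the sources used. Median intensities were 31.1 to 33.0 on the 5 arrays, whose small number sets the precision. RNA extraction is given as RNA Bee in the study's methods and as Trizol in the labels.

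All probe sets were kept, log2-transformed without a pseudocount and fitted with limma 3.58.1 in R 4.3.3 (1 mean per group, eBayes; 3 residual and 3.34 prior degrees of freedom), with Benjamini-Hochberg adjustment over 35556 probe sets. The fit was tested on simulated data. Symbols came from the platform annotation: 21218 probe sets carried 1 symbol, 1881 several and 12457 none here. A gene was represented by its brightest probe set of 1 symbol; 23 members had several. Of the 33 dimmer probe sets of members, 0 were called, 1 was lower at an unadjusted p under 0.05, and 12 had the opposite sign to the brightest. Groups came from the labels, which do not say how mice were housed or processed together. With 2 against 3 mice an exact permutation test cannot reach 0.05.

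Members and lists were chosen with earlier results of these data known. Named were, per complex, the 3 lowest p, the 2 brightest, any gene called against its complex, all paired isoforms, and up to 3 genes of lowest p in other lists. *Ndufs1*, *Ndufa9*, *Ndufa10*, *Ndufv2*, *Ndufs7*, *Ndufs8*, *Sdhd* and *Etfb* were named after their values were seen. The subunits of mitochondrial DNA were a list of which 0 genes were matched. Other lists had these counts, beside 3.95% lower and 8.34% higher over all named genes. Housekeeping genes had 2 of 21 higher and 0 lower, lymphocyte and NK markers 4 of 13 higher and 0 lower, erythroid markers 1 of 5 lower and 0 higher, endothelial markers 1 of 10 lower and 1 higher, and stellate cell and cholangiocyte markers 1 of 11 higher and 0 lower. Alternatives were other normalisations and centrings, filters, variance models, array weights, the replicate number as a block, each liver left out and a threshold of 0.10.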

Additional observations from a re-analysis of the deposited data

How the results depend on the processing

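The count of members called lower, 0 in the fit reported, was 8 with array weights (*Ndufv1*, *Ndufs3*, *Ndufa10*, *Sdha*, *Sdhb*, *Cyc1*, *Uqcrfs1* and *Uqcrc1*), 3 when adjusted over probe sets of 1 symbol and 3 with the mean over probe sets of a gene (*Ndufv1*, *Ndufb3* and *Sdha* both times), 2 at an adjusted p under 0.10 (*Ndufv1* and *Sdha*) and 1 after quantile normalisation (*Cyc1*). In these fits 11.9%, 8.7%, 9.08%, 7.4% and 5.22% of all named genes were lower. Leaving out single livers gave 0 to 1, the 1 being *Sdha* without CSF1-Fc replicate 3. The count was 0 when arrays were centred on liver secreted proteins or on their own median, with bright probe sets only, with a variance trend and without moderation. The count of members called higher was 0 under all alternatives. The members' median ran from -0.18 to 0.10 with 1 liver left out and was -0.11 after quantile normalisation. Centring on liver secreted proteins moved the median of all named genes from -0.08 to 0.15 and that of the members to 0.22. The median of the catalytic and core subunits was -0.39 to -0.12 over the alternatives and that of the other subunits -0.16 to 0.23. The labels do not say whether same-numbered livers were paired. Deviations of same-numbered arrays correlated at -0.07 and -0.25 over all probe sets and at -0.37 and -0.74 over the members. With 2 PBS arrays the deviations of 1 mirror those of the other, so these values cannot show whether a pairing exists. With the replicate number as a block the median was 0.10, with 0 lower and 0 higher, and 3 members were lower at an unadjusted p under 0.05. Of 549 values of 37 named members under alternatives, 534 kept their side of the threshold and 15 passed it. As 0 members were called in the fit reported, there was no called direction to reverse. Among named members with an unadjusted p under 0.05 in that fit, 0 values changed sign. Among the 29 with an unadjusted p of 0.05 or more, 62 values did. With 2 and 3 arrays, small changes of dim or variable genes cannot be resolved.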
